A study of Mus musculus with 2 samples.

Results

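The EGFR family and its ligands are described here in single cells of mouse pancreatic tumours. The genes are the receptors Egfr, Erbb2 and Erbb3 and the ligands Areg, Ereg, Hbegf, Tgfa and Btc, found by symbol in the deposited matrices. All 8 of them are among the 32285 genes measured, and all 8 had at least 10 counts over the kept cells of a library. The tumours came from KPPC mice, an engineered model of pancreatic cancer in which the pancreatic epithelium has, among its lesions, lost both copies of Trp53, and both groups share this background; the labels give neither the Cre driver nor the number of mice pooled. Mice were 6 weeks old and were given vehicle or takinib, a small-molecule inhibitor of the kinase TAK1, at 50 mg/kg for 14 days, and each group is 1 library. With 1 library a group there is no replicate and no test: every interval below covers counting error only, and treatment cannot be told apart from the animal, the dissection or the library.

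ErbB receptors are tyrosine kinases that pair on binding a ligand and signal through ERK, among other routes. Erbb2 binds no known ligand and acts as a partner, while Erbb3 has little kinase activity of its own and binds neuregulins. The ligands are made as membrane proteins and are released by proteases such as ADAM17. In the pancreas, Egfr and its ligands are known for their part in the change of acinar cells into duct-like cells that can precede tumours.

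Cells were kept with at least 1000 UMIs (molecular barcodes that let each captured RNA be counted once), at least 500 genes and at most 20% mitochondrial UMIs, and called doublets were removed. This left 9558 vehicle and 25183 takinib cells, with medians of 3556 and 2887 UMIs. Populations were clusters named from marker genes. Levels are CPM, a gene's UMIs per 1000000 UMIs summed over a population. A log2 ratio sets takinib over vehicle after 10 CPM was added to each, which understates differences at low levels, and is called past 2-fold at 1 or more in either direction where a library had at least 10 counts of the gene.

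The 2 libraries differed in make-up. Neutrophil-like cells were 2.86% of vehicle and 48.9% of takinib cells, and fibroblast-like and perivascular-like cells were 439 and 584 in vehicle but 55 and 14 in takinib. The vehicle library had a median of 8.70% mitochondrial UMIs and the takinib library 1.79%. RNA of the neutrophil genes S100a8 and S100a9 summed to 98.7 CPM in epithelial-like cells of vehicle and to 9475 CPM in those of takinib. Apart from this, 400 cell barcodes occurred in both libraries. The number that 2 unrelated libraries would share was not worked out. The name of the epithelial-like class was checked against 12 markers such as Epcam and Krt8, none at 0, whose sum was 8870 CPM in vehicle against 9783 CPM in takinib. Female-marked cells were set by unlike rules in the 2 libraries. In vehicle they were the 1075 cells with Xist and no Y-linked UMIs. In takinib they were the 14324 cells with Xist, whether or not they had Y-linked UMIs.

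Promoters are shown for 2 ligands with unlike patterns: Areg, which was past 2-fold in opposite directions in different populations, and Tgfa, whose levels in epithelial-like cells overlapped between libraries. The 150 bases before the RefSeq start of each are shown, both on the plus strand of GRCm38.p6: chr5:91139449-91139598 for Areg and chr6:86195072-86195221 for Tgfa. Capitals mark a cAMP response element (CRE, TGACGTCA), a TATA box (TATAAA) and GC boxes (GGGCGG, or CCGCCC where the match is on the other strand).
Areg: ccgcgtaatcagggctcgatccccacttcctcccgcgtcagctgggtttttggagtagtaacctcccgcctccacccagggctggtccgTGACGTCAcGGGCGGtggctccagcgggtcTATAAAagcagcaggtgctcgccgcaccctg
Tgfa: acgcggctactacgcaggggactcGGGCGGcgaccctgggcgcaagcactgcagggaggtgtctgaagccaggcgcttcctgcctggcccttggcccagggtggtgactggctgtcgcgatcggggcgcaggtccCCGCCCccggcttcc

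The Areg window holds 1 CRE, whose first base lies at -61 from the start, a GC box at -52 and a TATA box at -31. The Tgfa window holds GC boxes at -126 and -15 and neither of the other 2 motifs. Of 32817 mouse promoters of 300 bases (250 before to 50 after the start), 1.79% hold the CRE, 13.6% the TATA box and 35.6% a GC box on either strand. RefSeq promoters were matched for 5 of the 8 genes (Egfr, Erbb2, Areg, Tgfa and Btc). Of these 5, only Areg holds the CRE or the TATA box.
In all, 13 patterns were searched on both strands, and those in capitals were picked after the matches had been seen. Further patterns were AP-1 (TGANTCA, 0 of the 5 promoters, 7.81% of all), the E-box (CACGTG, 0, 7.15%), EGR1 (GCGNGGGCG, 0, 5.56%), GAS (TTCNNNGAA, 0, 8.29%) and an NF-kB consensus (0, 4.50%). Looser patterns were more common: the CRE core (TGACG, 3, 20.8%), which also lies inside the CRE, the CCAAT box (CCAAT, 1, 37.4%), ETS (CCGGAA, 1, 14.9%), and 2 loose NF-kB forms that can overlap the consensus (2, 19.2%, and 1, 20.7%). A match describes letters only; no binding was measured. In GRCm38 Ereg (chr5:91074622-91093646, plus strand), Areg (chr5:91139599-91148432, plus) and Btc (chr5:91357261-91402994, minus) lie on 1 stretch of chromosome 5. Egfr (chr11:16752203-16918158, plus) and Erbb2 (chr11:98412470-98437716, plus) are both on chromosome 11, Erbb3 is at chr10:128567523-128589652 (minus) and Tgfa at chr6:86195223-86275719 (plus).

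The receptor and ligand RNA of these tumours lay mostly in epithelial-like cells, except Ereg in takinib. Of all Egfr UMIs in kept cells, epithelial-like cells, which were 18% of vehicle and 7.50% of takinib cells, held 65.3% in vehicle (exact Clopper-Pearson 95% interval 62.7 to 67.9) and 59.1% in takinib (56.5 to 61.7). For Erbb2 the shares were 81.0% and 86.8%, and for Erbb3 88.6% and 89.97%. Among the ligands they were 92.6% and 92.4% for Btc, 80.3% and 86.1% for Tgfa, and 84.1% and 75.6% for Hbegf. Areg was at 91.8% (90.4 to 93.0) in vehicle and 64.5% (63.0 to 65.9) in takinib. Ereg stood furthest apart, at 66.3% (59.9 to 72.2) and 18.3% (16.4 to 20.3).
In takinib, neutrophil-like cells held 55% of Ereg, 23.5% of Areg and 11.2% of Hbegf UMIs; in vehicle they held 1 of 243, 2 of 1905 and 55 of 4038. These shares move with the number of cells of each kind as well as with the level per cell.

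**Figure D1:**
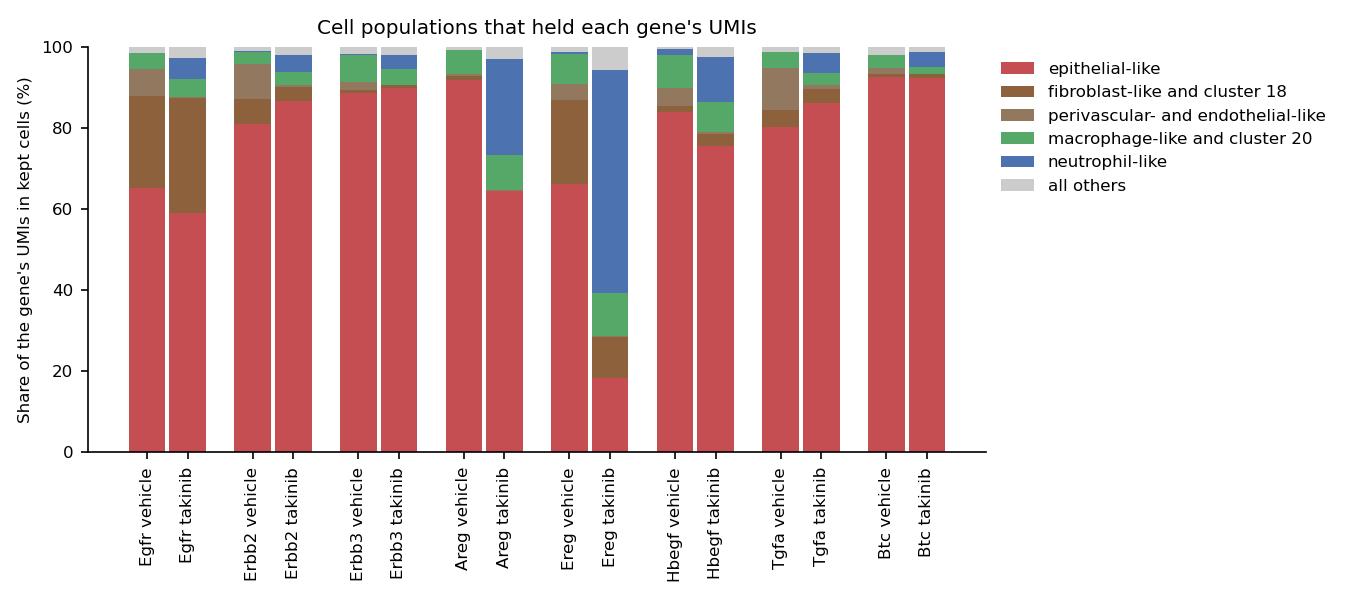
Stacked bars give the share of each gene's UMIs in kept cells (%) that lay in each cell population, with 1 bar per gene and library. Epithelial-like cells held 66.3% of Ereg UMIs in vehicle and 18.3% in takinib, where neutrophil-like cells held 55%.

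Summed over all kept cells, 7 of the 8 genes had a lower value in takinib (for Erbb3 with overlapping intervals) and Ereg a higher one, and none of the 8 was past 2-fold in either direction, beside 2.19% of all genes tested higher and 2.86% lower. Hbegf was 96.1 CPM in vehicle against 44.0 CPM in takinib (log2 ratio -0.97), Egfr 31.6 and 11.9 CPM (-0.93), and Ereg 5.79 and 12.99 CPM (0.54). In female-marked cells alone the log2 ratio was 0.04 for Areg, 0.09 for Btc and 0.05 for Erbb3, so these directions turned. The median gene of all kept cells was at -0.08. Fewer cells of a type and less RNA per cell cannot be told apart in these sums, so the populations are given one by one.

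**Figure D2:**
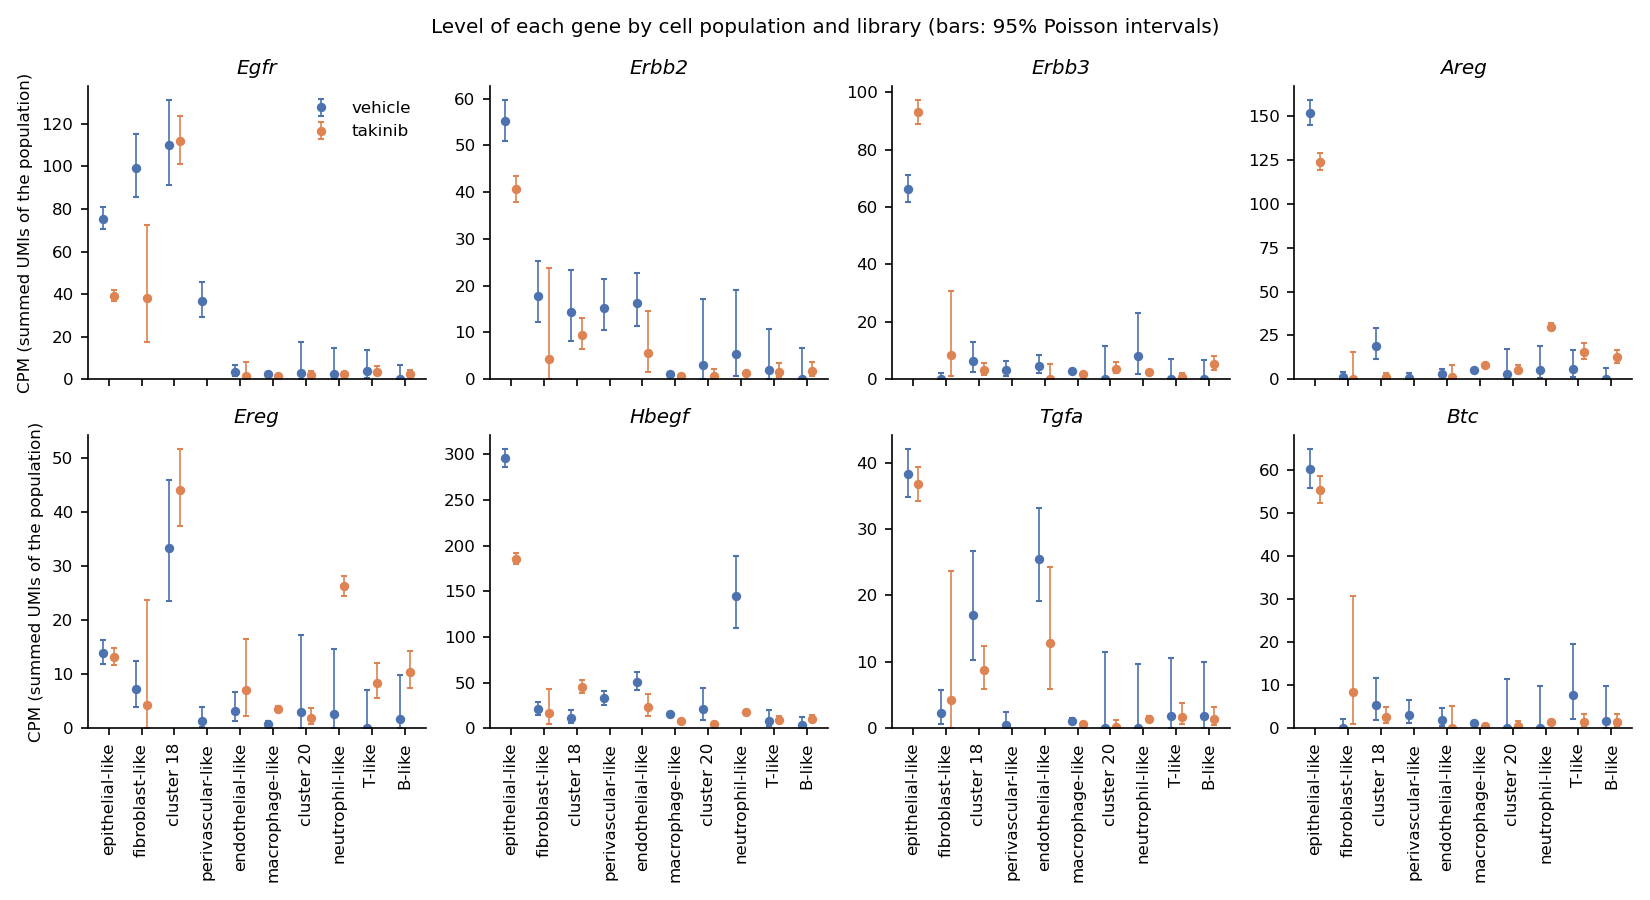
Each panel shows 1 gene, with CPM on the vertical axis, populations on the horizontal axis, points for the vehicle and takinib libraries and bars for 95% Poisson intervals. Egfr in vehicle was 110 CPM in cluster 18 and 99.5 CPM in fibroblast-like cells, with overlapping bars, Erbb3 was concentrated in epithelial-like cells, and Hbegf stood at 145 CPM in the vehicle neutrophil-like cells against 18.1 CPM in takinib.

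Egfr, the receptor for Areg, Tgfa and the other EGF-like ligands, was not an epithelial gene alone. In vehicle it was highest in cluster 18 at 110 CPM (95% Poisson interval 91.3 to 131) and in fibroblast-like cells at 99.5 CPM (85.4 to 115), whose intervals overlap. Cluster 18 was left unnamed because its leading genes (Dcn, Serpinb2, Timp1, Mgp) include fibroblast markers while its best score was mesothelial. Epithelial-like cells followed at 75.5 CPM (70.6 to 80.7), then perivascular-like cells at 36.8 CPM (29.3 to 45.7) and acinar-like cells at 33.4 CPM (18.2 to 55.97), the last 2 overlapping. Empty vehicle droplets (1 to 100 UMIs) had 23.0 CPM of Egfr (12.9 to 37.9), an interval that overlaps both of these. Egfr was at most 3.83 CPM in endothelial-, macrophage-, neutrophil-, T- and B-like cells of both libraries.
In epithelial-like cells Egfr was 75.5 CPM in vehicle against 39.3 CPM (36.7 to 42.0) in takinib, a log2 ratio of -0.80 (-0.96 to -0.63). After each cell was thinned to 1000 UMIs, an Egfr UMI was found in 7.84% of the vehicle and 3.86% of the takinib cells of this class (31.9% and 26.9% before thinning, at medians of 5056 and 9091 UMIs), and the log2 ratio of the thinned sums was -1.02. Of takinib erythroid-like cells, which should lack Egfr, 0 of 557 had a UMI after thinning, which allows a share of up to 0.539% (median 4733 UMIs). The epithelial-like log2 ratio of Egfr was -0.72 after subtraction of the neutrophil-like profile and -0.64 in female-marked cells alone.
In cluster 18 Egfr did not differ beyond counting error, at 110 and 112 CPM (101 to 124), with a log2 ratio of 0.03 (-0.34 to 0.40). Fibroblast-like cells of takinib gave 38.2 CPM (17.5 to 72.6) from 9 counts in 55 cells, too few cells for a ratio.

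Erbb2, the partner receptor, was 55.3 CPM (51.0 to 59.7) in vehicle against 40.6 CPM (38.0 to 43.4) in takinib epithelial-like cells, a log2 ratio of -0.37 (-0.54 to -0.19). In vehicle its next levels were much lower and overlapped one another: 17.9 CPM in fibroblast-like, 16.3 CPM in endothelial-like, 15.3 CPM in perivascular-like cells and 14.4 CPM in cluster 18. Empty vehicle droplets had 16.9 CPM of Erbb2, with an interval (8.42 to 30.2) that covers all of these levels. Erbb3, the neuregulin receptor, was 66.4 CPM (61.8 to 71.3) in vehicle against 93.2 CPM (89.2 to 97.4) in takinib epithelial-like cells, the only receptor that was higher in takinib there (log2 ratio 0.43, 0.29 to 0.58). Erbb3 was 33.4 CPM in vehicle acinar-like cells and at most 7.91 CPM in the other populations compared, beside 18.4 CPM (9.51 to 32.1) in empty vehicle droplets. The 3 receptors thus did not share a direction in epithelial-like cells, and none of the 8 genes was past 2-fold there, beside 1.81% of all genes tested higher and 1.51% lower.

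Epithelial-like cells were 4 clusters, in different proportions in the 2 libraries. Cluster 6, led by Dmbt1, Mmp7 and Gkn3, held 975 of 1721 vehicle and 1417 of 1889 takinib cells. Cluster 7, led by Tnc, Cdkn2a and Tm4sf1, held 623 and 163. Clusters 16 (led by Gkn2, Gkn1 and Tff1; 22 and 228 cells) and 22 (led by Spink4, Mptx1 and Muc2; 101 and 81 cells) were not compared. Genes known from stomach and intestine lead several of these clusters.
Egfr was lower in takinib in both large clusters: 86.1 and 39.0 CPM in cluster 6 (log2 ratio -0.97, -1.18 to -0.77), and 74.8 and 49.9 CPM in cluster 7 (-0.50, -0.85 to -0.16). Erbb2 too was lower in both, at 71.2 and 45.5 CPM in cluster 6 (-0.55) and 41.6 and 18.6 CPM in cluster 7 (-0.85). The higher class level of Erbb3 was in neither beyond counting error. It was 110 CPM (102 to 120) and 104 CPM (99.5 to 109) in cluster 6, and 26.4 CPM (22.3 to 31.2) and 32.5 CPM (25.7 to 40.7) in cluster 7. Cluster 6, the one with more Erbb3 in each library, was also the one that made up more of the class in takinib.

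Hbegf encodes heparin-binding EGF-like growth factor and Areg amphiregulin, both released by shedding. In epithelial-like cells Hbegf was 295 CPM (286 to 306) in vehicle against 185 CPM (180 to 191) in takinib, a log2 ratio of -0.64 (-0.73 to -0.55). Areg was 152 CPM (145 to 159) and 124 CPM (120 to 129), a log2 ratio of -0.27 (-0.39 to -0.16). The large clusters of the clustering used here went in opposite directions for Hbegf, and no finer clustering was compared for them.
In cluster 6 both ligands were higher in takinib: Hbegf was 107 CPM (98.3 to 116) and 181 CPM (174 to 187), a log2 ratio of 0.70 (0.55 to 0.86). Areg there was 76.2 CPM (68.9 to 84.0) and 118 CPM (113 to 123), a log2 ratio of 0.57 (0.39 to 0.76). In cluster 7 Hbegf was lower in takinib, at 527 CPM (508 to 547) and 301 CPM (280 to 324), and Areg was 242 CPM (229 to 256) and 210 CPM (192 to 230), with overlapping intervals. Cluster 7, the epithelial-like cluster with the most of both ligands in each library, was 623 of 1721 vehicle and 163 of 1889 takinib cells. The takinib number depended on the clustering. At resolution 2 a cluster led by Tnc, Hmga2 and Cdkn2a held 352 of 1792 epithelial-like takinib cells, and slightly fewer vehicle cells than cluster 7. Ligand levels were not compared in it. Among female-marked cells alone (207 vehicle, 1663 takinib) the epithelial-like log2 ratio was 0.14 for Areg and -1.30 for Hbegf, so the direction for Areg turned. No member was past 2-fold in either cluster, beside 1.96% higher and 1.01% lower of all genes in cluster 6 and 2.38% and 1.2% in cluster 7. This held for the settings used here and not for all alternatives. In cluster 6 Egfr was at -1.02 after thinning and -1.12 with 1 CPM added, and Ereg at 1.33 with 1 CPM added. In cluster 7 Erbb2 was at -1.12 with 1 CPM added, and female-marked cells alone (77 vehicle, 130 takinib) gave -1.03 for Erbb2, -1.31 for Hbegf, 1.48 for Ereg and 1.01 for Btc.

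**Figure D3:**
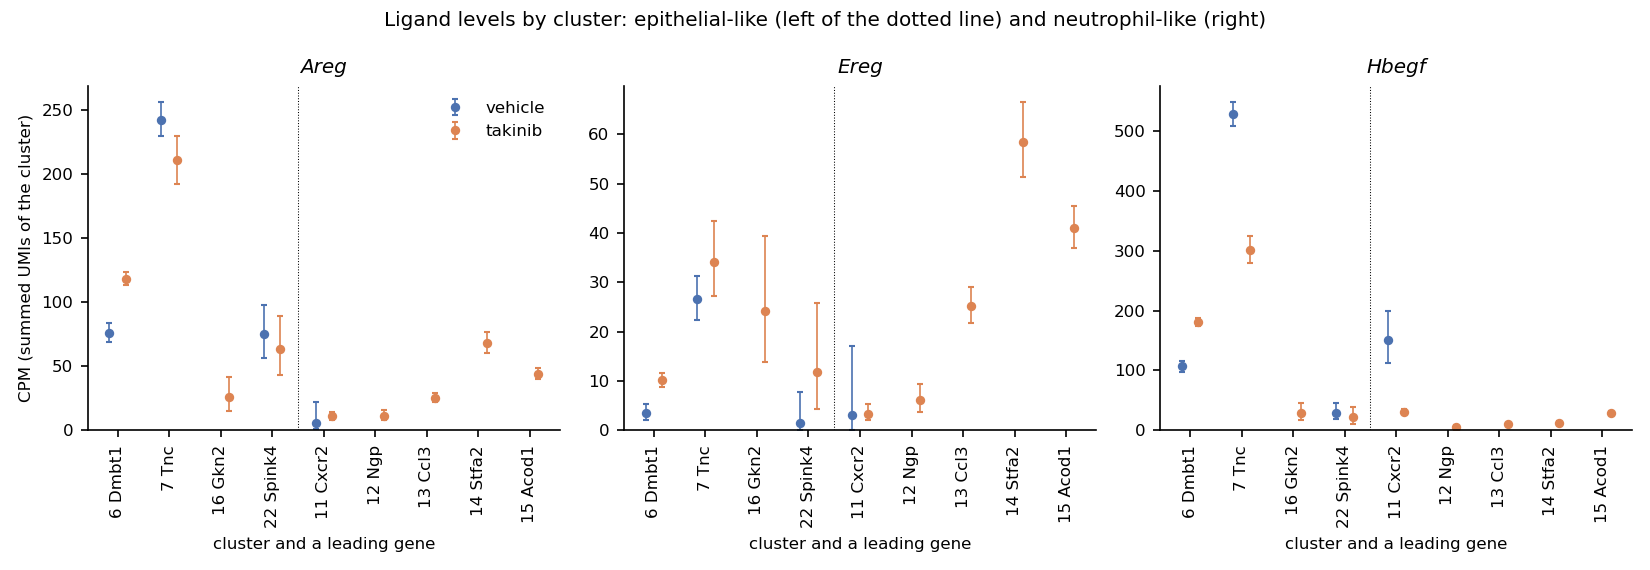
CPM of Areg, Ereg and Hbegf in single clusters, named by number and a leading gene, with points for each library and bars for 95% Poisson intervals. Left of the dotted line, Hbegf was higher in takinib in cluster 6 (107 and 181 CPM) and lower in cluster 7 (527 and 301 CPM); right of it, Ereg in takinib spanned 3.42 CPM in cluster 11 to 58.6 CPM in cluster 14; cluster 1 is not shown.

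For the other 3 ligands the libraries overlapped in epithelial-like cells. Tgfa, encoding transforming growth factor alpha, was 38.3 CPM (34.8 to 42.0) in vehicle against 36.7 CPM (34.2 to 39.4) in takinib, with nearly equal levels in cluster 6 (39.2 and 37.5 CPM) and cluster 7 (41.6 and 40.6 CPM). Btc, encoding betacellulin, was 60.2 CPM (55.8 to 64.9) and 55.5 CPM (52.4 to 58.7), and Ereg, encoding epiregulin, was 14.0 CPM (11.9 to 16.4) and 13.3 CPM (11.8 to 14.9). Within cluster 6, where the intervals of these last 2 did not overlap, Btc was 75.8 and 59.0 CPM (log2 ratio -0.31, -0.51 to -0.11) and Ereg 3.44 CPM (18 counts) and 10.1 CPM (0.58, 0.28 to 0.85).

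Neutrophil-like cells were the population with most members past 2-fold: 2 of 8 higher (Areg and Ereg), beside 2.74% of all genes tested, and 1 of 8 lower (Hbegf), beside 8.42%. Hbegf was 145 CPM (109 to 189; 55 counts) in the 273 vehicle cells and 18.1 CPM (16.7 to 19.6) in the 12308 takinib cells, 8.02-fold lower, with a log2 ratio of -2.46 (-2.90 to -2.01). After thinning, 12.8% of vehicle and 1.68% of takinib cells had an Hbegf UMI (15.4% and 3.49% before, at medians of 1218 and 1852 UMIs). Takinib erythroid-like cells gave 1.26% after thinning, with an interval of 0.507 to 2.57 that spans the takinib neutrophil-like share.
Areg was 5.27 CPM (0.639 to 19.0; 2 counts) in vehicle against 29.9 CPM (28.1 to 31.9; 973 counts) in takinib, a ratio of 5.67 (1.57 to 46.9). Ereg was 2.64 CPM (1 count) and 26.3 CPM (24.6 to 28.1; 855 counts), a ratio of 9.97 (1.79 to 394). Takinib erythroid-like cells had 3.48 CPM of Areg and 2.32 CPM of Ereg. Btc, the third of these genes on chromosome 5, had 0 counts in vehicle and 1.41 CPM in takinib, and Tgfa the same.

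The neutrophil-like cells of the 2 libraries were not the same clusters. Cluster 11, led by Cxcr2 and Il1r2, held 253 of the 273 vehicle cells and 2876 of the takinib cells, and takinib cells also filled clusters 12, 13, 14 and 15, in which vehicle had 8, 3, 0 and 6 cells. The smallest, cluster 1, led by Elane and Mpo, held 3 vehicle and 250 takinib cells. In cluster 11 Hbegf was 151 CPM (112 to 200) in vehicle against 31.3 CPM (26.7 to 36.5) in takinib, a log2 ratio of -1.96 (-2.51 to -1.39), the 1 of 8 members past 2-fold, beside 10.6% of all genes lower and 3.96% higher. Areg in that cluster was 6.17 and 11.01 CPM and Ereg 3.08 and 3.42 CPM, with overlapping intervals. The log2 ratio of Areg there ran from -0.86 with at most 10% mitochondrial UMIs to 1.35 at 2000 UMIs and 1000 genes.
In takinib, Ereg was lowest in cluster 11 (3.42 CPM, 2.02 to 5.40), cluster 1 (4.35 CPM, 2.31 to 7.43) and cluster 12, led by Ifitm6 and Ngp (6.12 CPM, 3.79 to 9.35), which overlap. It was 25.2 CPM (21.8 to 29.0) in cluster 13, led by Ccl3 and Chil1, 41.1 CPM (37.0 to 45.5) in cluster 15, led by G0s2 and Acod1, and 58.6 CPM (51.3 to 66.5) in cluster 14, led by Stfa2. Areg was lowest in cluster 1 (1.34 CPM, 0.364 to 3.42) and otherwise had the same order, at 11.01 CPM in cluster 11, 11.7 in 12, 25.5 in 13, 44.1 in 15 and 68.2 in 14. The clusters rich in both ligands were thus takinib clusters with almost no vehicle counterpart.
RNA quality differed beside this result: the median mitochondrial share was 14.1% in vehicle and 0.931% in takinib neutrophil-like cells. At most 10% mitochondrial UMIs left 36 vehicle cells, and the log2 ratios were then -1.18 for Hbegf, 0.79 for Areg and 1.86 for Ereg. At 2000 UMIs and 1000 genes, with 12 vehicle cells, Hbegf was at -1.03. With doublets kept and cells reclustered, 44 vehicle cells were neutrophil-like, and Ereg was at 0.78. The summed level of 12 epithelial markers was 493 CPM in the vehicle and 187 CPM in the takinib cells, and that of 12 macrophage markers 2653 and 3642 CPM, with no marker of either list at 0. Empty vehicle droplets (1 to 100 UMIs) had 50.6 CPM of Hbegf (34.8 to 71.0), below the level in vehicle neutrophil-like cells. For the other 2 ligands they were above it, with overlapping intervals. They had 26.1 CPM of Areg (15.2 to 41.7) against 5.27 CPM, and 4.60 CPM of Ereg (0.948 to 13.4) against 2.64 CPM.

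**Figure D4:**
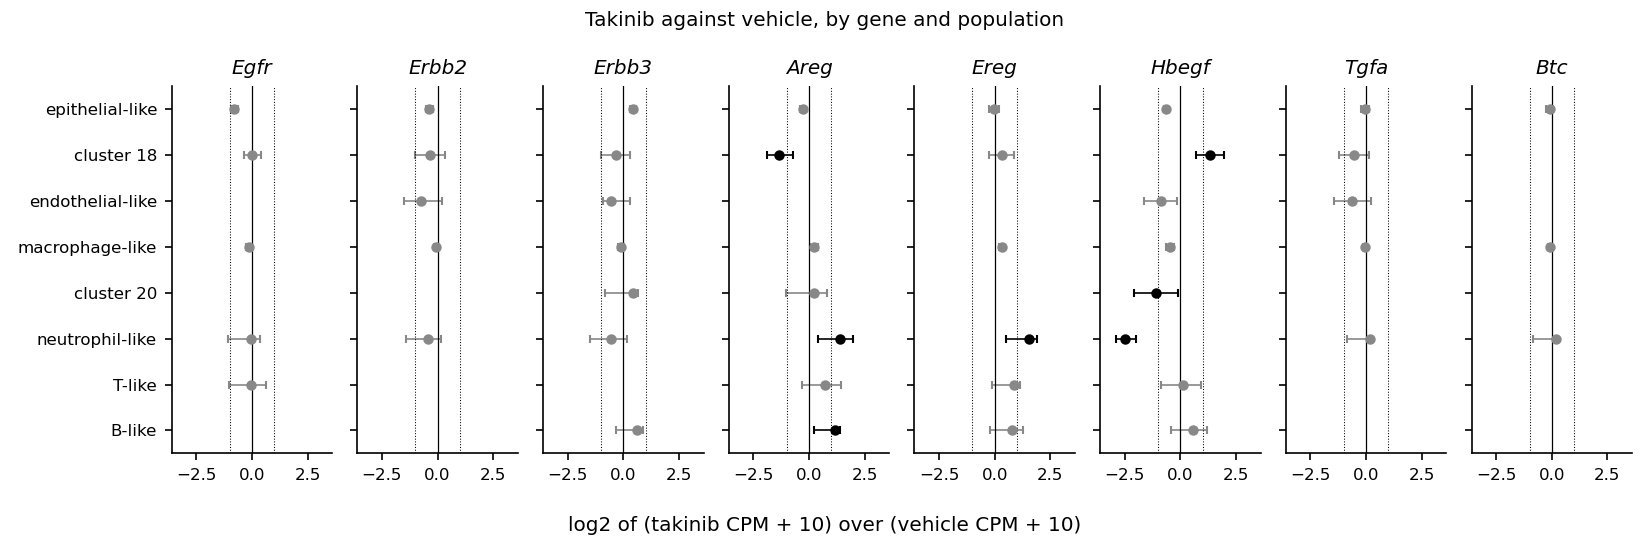
Log2 ratios of takinib over vehicle CPM, each plus 10, on the horizontal axis, with a panel per gene and a row per population; bars run between the ends of both Poisson intervals, dotted lines mark 2-fold and black points are past it. Hbegf was past 2-fold lower in neutrophil-like cells (-2.46) and cluster 20 (-1.11) and higher in cluster 18 (1.34), while none of the receptors was past 2-fold in any population shown.

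Cluster 18 had 1 of 7 tested members higher past 2-fold, beside 3.05% of all genes, and 1 lower, beside 3.4%. Hbegf was 11.7 CPM (6.24 to 20.04) in vehicle against 45.0 CPM (38.3 to 52.6) in takinib, a log2 ratio of 1.34 (0.69 to 1.95). Areg went the other way, 18.9 CPM (11.7 to 28.9) and 1.42 CPM (0.460 to 3.30), with a log2 ratio of -1.34 (-1.90 to -0.71). Neither vehicle level was above that of empty vehicle droplets, 50.6 CPM for Hbegf (34.8 to 71.0) and 26.1 CPM for Areg (15.2 to 41.7). The vehicle level of Areg came from 21 UMIs in 5 of the cluster's 259 cells. Ereg was 33.3 CPM (23.5 to 46.0) there in vehicle, the highest of the populations and overlapping that of epithelial-like cluster 7 (26.6 CPM, 22.4 to 31.4), and 44.2 CPM (37.5 to 51.7) in takinib, a log2 ratio of 0.32 (-0.24 to 0.88). Its direction depended on the processing: the ratio was -1.30 after thinning, 1.70 with at most 10% mitochondrial UMIs and 2.45 in female-marked cells alone (29 vehicle cells). The median depth of the cluster was 3142 UMIs in vehicle and 8963 in takinib, and S100a8 and S100a9 summed to 190.2 and 10415 CPM. Its mesothelial markers summed to 891 and 429 CPM, macrophage markers to 4190 and 1692, and fibroblast markers to 26193 and 21489. In a finer clustering (resolution 2) a cluster led by Dcn and Serpinb2 held 138 vehicle and 252 takinib cells. A fibroblast-like one led by Col3a1 and Clec3b held 122 and 47. Cluster 18 was not compared at that resolution. After subtraction of the neutrophil-like profile the log2 ratios were 1.40 for Hbegf and -1.53 for Areg. After thinning, 0.772% of vehicle (0.0937 to 2.76) and 2.36% of takinib cells (0.953 to 4.80) had an Hbegf UMI, so at equal depth per cell the intervals overlap; the counts left were too few for a ratio.

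In endothelial-like cells, none of the 4 tested members was past 2-fold, beside 3.86% of all genes higher and 3.87% lower. Tgfa was 25.5 CPM (19.2 to 33.2) in vehicle, 10.0% of that library's Tgfa UMIs, and 12.8 CPM (5.86 to 24.3) in takinib. Hbegf was 50.6 CPM (41.6 to 61.1) and 22.8 CPM (13.02 to 37.0). Empty vehicle droplets had the same 50.6 CPM of Hbegf (34.8 to 71.0). They had 10.7 CPM of Tgfa (4.31 to 22.1), an interval that overlaps the vehicle one. Macrophage-like cells, the largest class in vehicle, had no more than 15.7 CPM of any member and 0 of 8 past 2-fold, beside 1.53% higher and 0.914% lower. Their vehicle levels were below those of empty vehicle droplets for all 8 genes, for instance 5.30 CPM of Areg against 26.1 CPM (15.2 to 41.7). Different clusters held most of this class in the 2 libraries, clusters 2 and 5 in vehicle and 4 and 10 in takinib. Ereg in this class was 0.819 CPM (0.477 to 1.31) and 3.58 CPM (3.04 to 4.19), and Hbegf 15.7 CPM (14.0 to 17.5) and 8.50 CPM (7.65 to 9.41).
In cluster 20, led by S100a4, Ccr2 and Vcan, 1 of 3 tested members was lower past 2-fold, beside 2.65%, and none higher, beside 4.26%. It was Hbegf, at 21.7 CPM (7 counts) and 4.71 CPM (20 counts). The vehicle level was below the 50.6 CPM (34.8 to 71.0) of empty vehicle droplets, with overlapping intervals. T-like cells had 0 of 4 past 2-fold, beside 3.14% higher and 1.55% lower, and Areg was 5.74 CPM (3 counts) and 15.6 CPM (11.7 to 20.4). B-like cells had 1 of 4 higher past 2-fold, beside 4.54%, and none lower, beside 2.22%. It was Areg, with 0 counts in vehicle and 12.4 CPM (9.05 to 16.6) in takinib, 2.32-fold higher against the limit of 3 counts over the vehicle cells; the exact counting interval of the ratio begins lower, at 1.81. Of those 45 takinib UMIs, 41 lay in cluster 26, which had 3 vehicle cells and 74561 CPM of S100a8 and S100a9. After subtraction of the neutrophil-like profile in proportion to those genes the B-like log2 ratio of Areg was 0.68.

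The rest of the pathway was read in epithelial-like cells from 5 lists, where the median of all genes tested was -0.06. Of all genes tested there, 1.81% were higher past 2-fold and 1.51% lower. Among the remaining receptor and ligands (Erbb4, Egf, Epgn and Nrg1 to Nrg4), 5 of 7 were tested and none was past 2-fold (median 0.06). The highest was Nrg4, a ligand of Erbb4, at 4.18 and 9.13 CPM, and the lowest Egf, at 1.22 and 1.02 CPM. Of 5 genes of ligand shedding none was past 2-fold (median -0.17). Rhbdf1, a rhomboid-like partner of ADAM17, was lowest at 42.9 and 23.7 CPM (log2 ratio -0.65), and Adam10 highest at 146 and 136 CPM. Of 10 adaptors and relay genes none was past 2-fold (median 0.04), from Plcg1, encoding a phospholipase bound by the receptor, at -0.59, to Shc1, an adaptor, at 0.11.
Of 12 receptor brakes and feedback genes 1 was lower past 2-fold, beside 1.51% of all genes, and none higher, beside 1.81% (median -0.29). It was Lrig3, of a family of ErbB-binding membrane proteins, at 26.2 and 4.75 CPM (-1.30); Spry1, a feedback inhibitor of growth factor signalling, was highest at 0.21. Of 10 genes that ERK signalling is known to induce 1 was higher, beside 1.81% of all genes, and none lower, beside 1.51% (median -0.16). It was the immediate-early gene Egr1, at 98.0 and 401 CPM (1.93), while the cell-cycle gene Ccnd1 was lowest, at 477 and 253 CPM (-0.89).
In cluster 6 alone, 4 of these 10 were higher past 2-fold (Egr1, Fosl1, Ier3 and Plaur), beside 1.96% of all genes, and Lrig3 was again the 1 lower brake, beside 1.01%. Egr1 was 56.6 and 400.1 CPM there, and Plaur, encoding the urokinase receptor, 80.0 and 249 CPM. These calls were not limited to cluster 6: Egr1, Ier3 and Plaur were also higher past 2-fold in all kept cells, in B-, T- and endothelial-like cells and in clusters 18 and 20, with Fosl1 too in B-like cells and cluster 18. S100a8 and S100a9 summed to 123 and 9042 CPM in cluster 6, and their part in these ratios was not tested. In neutrophil-like cells, where the median gene was at -0.22, 2 of the 10 were higher (Fosl1 and Plaur), beside 2.74% of all genes, and 2 lower (Etv4 and Ccnd1), beside 8.42%. Of the 12 brakes there 2 were lower, the ERK phosphatase gene Dusp6 (87.0 and 25.7 CPM) and Spred1.

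Genes whose levels ran most alike over 12 class-by-library profiles were sought among 15538 genes, as a description. All profiles come from 2 libraries and share their depth and free RNA. For Egfr, whose profile excludes the stromal populations, they were Fam3b, Arhgef19 and Wincr1 (Pearson's r 0.99 for each), and for Btc Kdf1, Sh3gl2 and Sema3e (0.996 for Kdf1). Erbb3 was nearest to the tight-junction gene Cldn3 (0.99), and Erbb2 to Ptpn3 (0.99). Ereg was nearest to the stress gene Gadd45a (0.97) and the AP-1 gene Fosl1 (0.96). Areg was nearest to Amy1 and Bglap3 (0.96 each), Hbegf to Gm17025 (0.98), and Tgfa to Rin1 and Arhgef5 (0.99 each).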

How the data were processed

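The authors deposited raw UMI counts per gene and barcode, made with Cell Ranger 4 (vehicle) and 6.1.1 (takinib) per the file headers; the submitters' processing notes name mm10 and Cell Ranger 2.1.1. Vehicle held 704261 barcodes (80850334 UMIs) and takinib 34158 (139292875 UMIs), none under 500 UMIs, so takinib had been filtered before deposit. Doublets were called with Scrublet in scanpy 1.11.5; 314 vehicle barcodes were removed, and in takinib, where the automatic threshold marked 0.00373%, the 6% with the highest scores (1607). Both libraries were clustered together (2000 variable genes, 30 components, 15 neighbours, Leiden resolution 1, seed 1), uncorrected. Classes of 17 marker lists needed 3 detected markers; a second class at 0.75 of the best score, or more markers of another class among the leading genes, left a cluster unnamed. Comparison needed 100 cells of a class or cluster in both libraries and used no test, and the code was tested on simulated data. In each pathway list the highest and lowest ratio are named, and for each member the 3 genes most correlated. The members and lists were chosen with earlier results of these data known; clusters 6, 7 and 11 and the 5-cell minimum for an alternative were added after seeing the data. Intervals (95%) are exact Poisson or Clopper-Pearson and cover counting error only. Tried alternatives were the cell, mitochondrial and count limits, doublets, thinning, pseudocount, centring, resolution, sex, free-RNA subtraction and naming.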

Additional observations from a re-analysis of the deposited data

Results flagged for a closer look

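The same ligand was past 2-fold in opposite directions in different populations. Areg was higher in takinib in neutrophil-like cells (log2 ratio 1.39, from 2 vehicle counts) and B-like cells (1.16, from 0 vehicle counts) and lower in cluster 18 (-1.34, from 21 vehicle counts in 5 cells). Hbegf was lower in neutrophil-like cells (-2.46) and in cluster 20 (-1.11, from 7 vehicle counts) and higher in cluster 18 (1.34). The vehicle values of Areg in all of these populations, and of Hbegf in clusters 18 and 20, were below those of empty vehicle droplets. With 1 library a group, the difference between populations was not tested.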

How the results depend on the processing

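Of 78 log2 ratios, 8 were past 2-fold; 7 of these kept their sign under every alternative run, and 4 also stayed past 2-fold: Hbegf in neutrophil-like cells, cluster 11 and cluster 18, and Areg in cluster 18. Hbegf in cluster 20 turned to 0.54 in female cells only (7 vehicle cells). Areg in cluster 18 had a ratio in only 4 alternatives, with too few counts under several others. Hbegf in cluster 18 had too few counts for a ratio after thinning, where its shares of cells overlapped. T-like cells gave no ratio at resolution 2, and single clusters were not compared at that resolution.

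The number of members past 2-fold moved as follows. The share of all genes past 2-fold was worked out for the main setting only. These counts therefore cannot be read against such a share. With a pseudocount of 1 CPM it was 1 higher and 3 lower in all kept cells, 4 higher in B-like, 2 higher in T-like, 3 lower in endothelial-like, 1 higher in macrophage-like, 4 higher and 3 lower in neutrophil-like cells and 1 higher in cluster 20. With the 10% mitochondrial limit it was 1 lower in all kept cells, 2 higher in B-like, 1 higher in T-like, 2 lower in endothelial-like and 1 higher in neutrophil-like cells, and 2 higher and 0 lower in cluster 18. After thinning it was 2 lower in all kept cells, 1 lower in endothelial-like and in epithelial-like cells (Egfr), 0 higher and 2 lower in cluster 18 and 0 lower in cluster 20. In female cells only it was 1 lower in all kept cells, 0 higher in B-like, 2 higher in T-like, 1 lower in epithelial-like cells (Hbegf), 2 higher and 0 lower in cluster 18 and 0 lower in cluster 20. With no doublets removed it was 1 lower in endothelial-like and 1 higher in neutrophil-like cells. At 2000 UMIs it was 2 lower in neutrophil-like cells and 0 lower in clusters 18 and 20. With at least 50 counts it was 0 higher in B-like cells and 0 lower in clusters 18 and 20, which follows from fewer genes tested. Subtraction of the neutrophil profile gave 0 higher in B-like cells. In the single clusters, female cells only put Areg in cluster 11 at 1.17 and turned Areg in cluster 7 to 0.45; a pseudocount of 1 CPM put Egfr and Btc at 1.71, Tgfa at 1.63 and Erbb2 at -1.31 in cluster 11, on 2 vehicle counts or fewer. Ereg in cluster 18 ran from -1.30 after thinning to 2.45 in female cells only. For the others the cause was not tested.

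No paired analysis was possible because each group is 1 library.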
